A study of Leptinotarsa decemlineata with 6 samples.

Results

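Genes of fatty acid synthesis, fatty acid modification and fat breakdown were examined in head transcriptomes of the Colorado potato beetle (CPB, Leptinotarsa decemlineata), a leaf beetle that feeds on potato. A gene was included when the name of its best Swissprot match (a curated protein database) contained fatty acid synthase, fatty acyl-CoA reductase, desaturase, elongation of very long chain, acetyl-CoA carboxylase, fatty acid-binding, long-chain-fatty-acid--CoA ligase or lipase, without phospholipase C or 4,5-bisphosphate, and when its mean was at least 1 TPM in a group. TPM is a transcript level corrected for transcript length and library size. Of 236706 assembled genes, 257 carried such a name and 132 also reached the level. The other 125 stayed below it, and 22 of these were at 0 in every library. Because "lipase" was part of the search, 68 of the 132 genes were lipases, phospholipases or proteins that assist them, and 64 belonged to synthesis, activation and transport of fatty acids.

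Besides their names, the genes were thus selected on their TPM in these same libraries. A mean of 1 TPM was reached in both groups by 105 genes, in the non-treatment group alone by 22 and in the antibiotic group alone by 5, and the last 2 sets differed between the groups by the way they were chosen. Just inside the threshold, the higher group mean was 1.05 TPM for an inactive pancreatic lipase-related protein, 1.12 TPM for a phospholipase D that hydrolyzes N-acyl-phosphatidylethanolamine and 1.17 TPM for phospholipase D1. Just outside it were a stearoyl-CoA desaturase 5 at 0.964 TPM, an elongase at 0.936 TPM and a lipoprotein lipase at 0.918 TPM. The phospholipase D at 1.12 TPM came from 1 library alone, antibiotic replicate 1 at 3.37 TPM, and its best match in the NR protein collection was from an antelope, Pantholops hodgsonii.

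The genes are Trinity names, that is, groups of assembled transcripts, and their protein names come from other species. An NR protein was listed for 131 of them, most often from the flour beetle Tribolium castaneum (74 genes), and from CPB itself for 2. The 131 genes matched 116 distinct proteins, and 26 genes shared their protein with another member, so that some may be pieces or near copies of 1 gene. Reads can be split between such neighbours, and 15 genes sat in 6 Trinity subcomponents that held more than 1 member. The Swissprot match had an E value of at most 1e-10 for 121 genes.

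There were 3 non-treatment and 3 antibiotic libraries, all from wild-type (WT) beetles and made from total RNA of the head. According to the study's methods, adults in the antibiotic group were fed for several days on potato leaves that had been briefly soaked in tetracycline, penicillin, ofloxacin, ciprofloxacin and ampicillin, and controls received sterile water and leaves treated with Tween-20. Below, the values of a gene are given library by library in the order of the replicate numbers, first for the non-treatment and then for the antibiotic group. The antibiotic concentration behind these libraries, the age and sex of the beetles and the number pooled per library were not found in these sources. Nothing says that the libraries of a group came from separate cages, so p-values measure the spread between these libraries, which may be technical.

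Total estimated counts were between 25397497 and 33613953 in the 5 libraries whose own counts could be used, and the depth of antibiotic replicate 1 is unknown. The tissue label was checked against markers. A rhodopsin of the eye (TRINITY_DN52274_c7_g1) was at 0.592, 0.639 and 0.252 TPM across the non-treatment group and at 161, 212 and 138 TPM across the antibiotic group. Protamine (TRINITY_DN62402_c0_g1), which packs DNA in sperm, was at 516, 408 and 81.8 TPM across the non-treatment group and was listed at 0 in all antibiotic libraries. The 93 genes of testis and sperm summed to 2197, 1706 and 1185 TPM and to 1125, 1037 and 1313 TPM, so the groups overlapped. Of the 41 tested, 27 fell and 2 rose (7.26% and 2.88% of all genes tested). Genes of each marker list were tested at a mean of at least 1 TPM in a group. Those that reached it in 1 group alone thus differed by the way they were chosen. A dynein heavy chain 10 (TRINITY_DN58913_c2_g2) rose from 82.9, 76.5 and 82.8 TPM to 279, 288 and 417 TPM. The 64 genes named as muscle proteins summed to 7265 to 11302 TPM in the non-treatment group and to 27492 to 29555 TPM in the antibiotic group. The 165 genes named as digestive proteins of the gut summed to 8802, 27586 and 12290 TPM across the non-treatment group and to 4410, 7166 and 6830 TPM across the antibiotic group, with the highest sum in non-treatment replicate 2. The non-treatment libraries thus held little of a defining eye transcript although they are labelled head. The whole list of 53 eye genes was less uneven, with sums of 420, 476 and 506 TPM and of 779, 974 and 869 TPM. The list was drawn by name and may hold genes of other tissues. Its most abundant gene, a retinol dehydrogenase 14 (TRINITY_DN65162_c5_g1), was at 144, 119 and 146 TPM and at 117, 130 and 114 TPM. A rhodopsin-specific isomerase (TRINITY_DN52544_c0_g5) was at 0.331, 0.220 and 0.166 TPM and at 8.80, 9.41 and 7.64 TPM. Of the 35 eye genes tested, 9 rose and 2 fell (2.88% and 7.26% of all genes tested), with a median log2 difference of 0.30. The 53 genes of brain and neurons summed to overlapping levels, at 598, 567 and 631 TPM and at 498, 676 and 643 TPM. The sum hides changes in both directions, since of 26 tested 4 rose and 4 fell (2.88% and 7.26% of all genes tested). The most abundant, a synaptotagmin-15 (TRINITY_DN62800_c1_g1), fell from 183, 157 and 228 TPM to 71.8, 107 and 108 TPM. An ELAV-like protein 3 (TRINITY_DN51173_c6_g1) rose from 21.3, 22.1 and 25.2 TPM to 64.1, 67.9 and 85.0 TPM. The study's own comparison is between groups named AH and HH, while the libraries labelled antibiotic are titled AH and those labelled non-treatment AA, and whether AA and HH are the same libraries could not be settled here, so every non-treatment value below is that of a library labelled non-treatment. In bulk RNA, fewer cells of a type and less RNA per cell cannot be told apart, and here the tissue content of the libraries cannot be told apart from the antibiotic feeding in any comparison below.

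In insects, acetyl-CoA carboxylase makes malonyl-CoA, and fatty acid synthase strings these units into a fatty acid. Elongases lengthen the chain, desaturases put in double bonds, and fatty acyl-CoA reductases convert the product towards aldehydes and alcohols. Oenocytes, cells associated with the epidermis and the fat body, use the very long chains to make the hydrocarbons that waterproof the cuticle and often serve as contact signals. A cytochrome P450 of the CYP4G family carries out the last step of hydrocarbon synthesis. The fat body stores fatty acids as triglycerides, and lipases of the gut and the fat body release them again.

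Together the 132 genes held between 0.437% and 0.735% of a library's TPM. The genes for synthesis were abundant, and the lipases were lower. Summed TPM of the 64 genes of synthesis, activation and transport was 5831, 3232 and 3650 in non-treatment replicates 1, 2 and 3, and 5725, 6360 and 6621 in antibiotic replicates 1, 2 and 3. Non-treatment replicate 1 was thus within the antibiotic range, and the other two non-treatment libraries were below it. The 68 lipases and related genes summed to 692, 1138 and 724 TPM and to 590, 764 and 733 TPM, so that non-treatment replicate 2 was the highest and the groups overlapped.

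**Figure D1:**
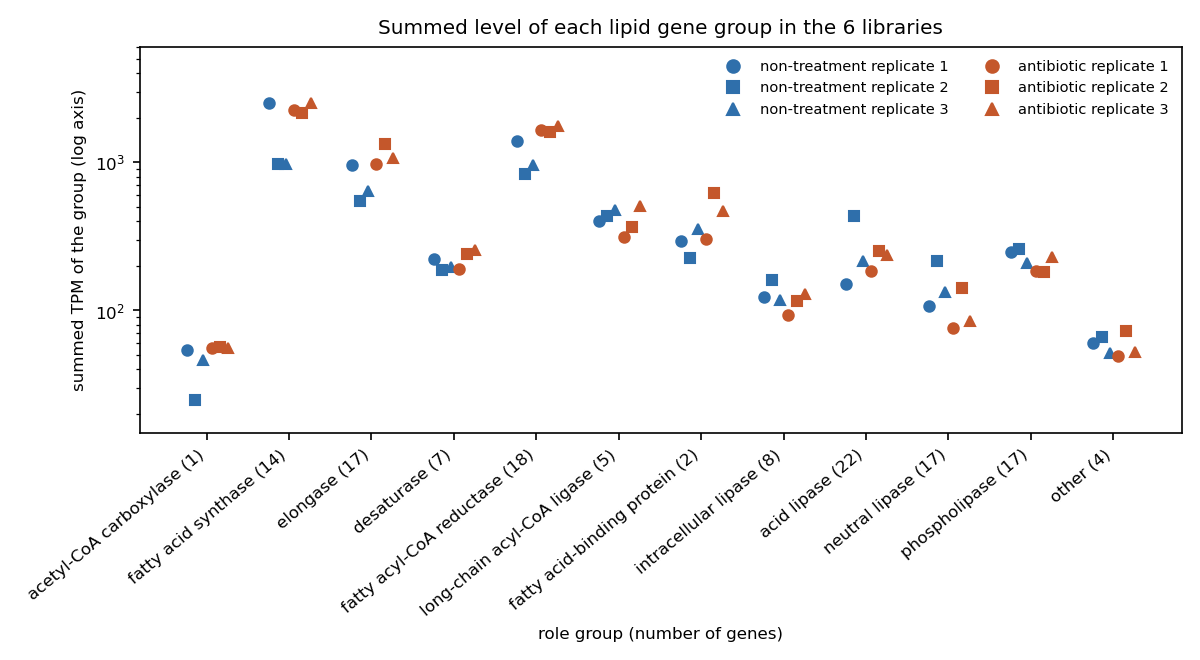
Summed TPM per library for the main enzyme groups, with the non-treatment and antibiotic libraries side by side; each mark is 1 library, the y axis is logarithmic and the number of genes stands beside each group. Fatty acid synthases summed to 2497 TPM in non-treatment replicate 1, within the antibiotic range, while the acid and neutral lipases were highest in non-treatment replicate 2.

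The groups were compared with limma on log2(TPM + 1) over the 33919 genes with a mean of at least 1 TPM in a group. A log2 difference is the antibiotic minus the non-treatment mean on this scale, which understates the change of low genes, and a gene was called at a Benjamini-Hochberg adjusted p under 0.05 over all genes tested. Of the 132 genes, 1 was higher after antibiotic feeding, a fatty acyl-CoA reductase, against 2.88% of all genes tested. There were 10 lower genes, namely 9 lipases and 1 desaturase, against 7.26% of all genes tested. Both directions together came to 8.33% of the lipid genes and 10.1% of all genes tested, so the share called was near the background. Of the 10 lower genes, 8 had an antibiotic mean under 1 TPM and entered through their non-treatment level alone. Non-overlapping groups were seen for 22 genes that were higher (10.5% of all genes tested) and 27 that were lower (19.8% of all genes tested). The median log2 difference was 0.13 over the 132 genes and -0.09 over all genes tested. When TPM was rescaled by median-of-ratios factors, which moved the median of all genes to 0.005, the split became 6 higher and 8 lower, against 3.93% and 6.86% of all genes then tested.

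The counts of calls changed when single libraries were left out. Each such fit has 1 library fewer, which by itself can end a call, and the share of all genes called changed as well. Without non-treatment replicate 1, 11 genes were called higher and 12 lower, where 1.96% and 6.69% of all genes tested were called. The 11 higher genes were 6 fatty acid synthases, 3 fatty acyl-CoA reductases and 2 elongases, and the reductase called with all libraries was not among them (adjusted p = 0.0852). Without non-treatment replicate 2 there were 0 higher and 8 lower genes (1.49% and 4.39% of all genes tested), and without non-treatment replicate 3 there were 1 and 14 (2.43% and 8.54%). Without antibiotic replicate 1 there were 1 and 2 (1.62% and 3.48%), without antibiotic replicate 2 there were 0 and 2 (1.56% and 4.08%), and without antibiotic replicate 3 there were 0 and 5 (1.47% and 4.35%). At an unadjusted p under 0.05 in all 6 libraries, 22 lipid genes were higher and 26 lower, against 8.09% and 16.2% of all genes tested.

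**Figure D2:**
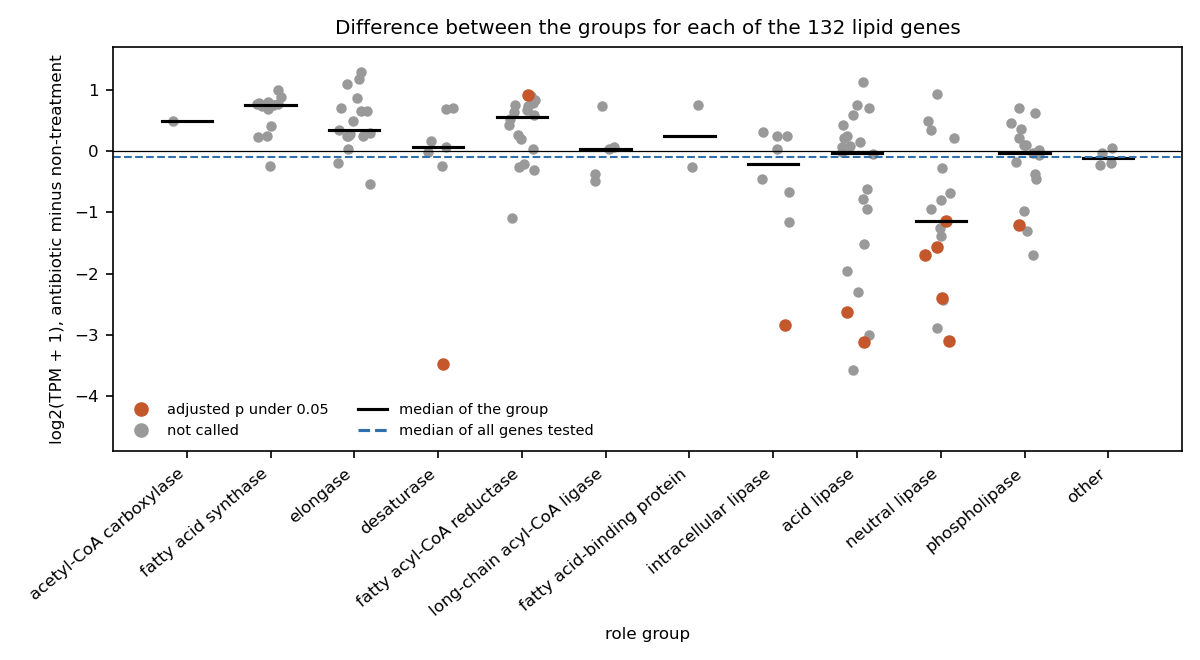
Log2 difference (antibiotic minus non-treatment, log2(TPM + 1) scale) of each of the 132 genes by enzyme group; orange points are the 11 called genes, grey points the others, bars are medians and the dashed line is the median of all genes tested (-0.09). Most synthesis, elongase and reductase genes lie above 0, with medians of 0.76, 0.35 and 0.55, and neutral lipases mostly lie below 0, with a median of -1.14.

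The first committed step was represented by 1 gene. Acetyl-CoA carboxylase (TRINITY_DN62198_c2_g1) was at 54.0, 25.0 and 46.3 TPM across the non-treatment group and at 56.2, 56.5 and 55.9 TPM across the antibiotic group. The groups did not overlap, but non-treatment replicate 1 was close to the antibiotic values, and the gene was not called (log2 difference 0.49, SE 0.292, adjusted p = 0.358).

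Fatty acid synthase, the multidomain enzyme that makes palmitate, was represented by 14 genes with 12 distinct NR proteins, and none was called in either direction. Their median log2 difference was 0.76, and 13 of 14 were above 0. The summed level was 2497, 970.2 and 970.01 TPM across the non-treatment group and 2237, 2141 and 2503 TPM across the antibiotic group, or 1479 ± 881 TPM against 2294 ± 188 TPM (SD, n = 3). The group difference was therefore within the spread of the non-treatment group, where replicate 1 was above the other two in 11 of 14 genes.

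The most abundant synthase gene (TRINITY_DN64312_c2_g1) was at 1054, 388 and 303 TPM across the non-treatment group and at 874, 772 and 963 TPM across the antibiotic group. Its log2 difference was 0.80 with an SE of 0.451 (adjusted p = 0.334), and without non-treatment replicate 1 it was 1.33 (adjusted p = 0.0344). The next gene (TRINITY_DN61623_c3_g1) was at 456, 179 and 141 TPM and at 410, 338 and 406 TPM. Both genes had the same order of libraries within the non-treatment group, and for both the highest value of all was in non-treatment replicate 1. For the second, the log2 difference was 0.76 (SE 0.421, adjusted p = 0.323) with all libraries and 1.27 (adjusted p = 0.0307) without that replicate.

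The 8 synthase genes with a mean of at least 30 TPM over all libraries moved almost as a unit from library to library. Relative to each gene's own mean, their levels were 1.01 to 1.45 in non-treatment replicate 1, 0.436 to 0.556 in replicate 2 and 0.417 to 0.752 in replicate 3. In antibiotic replicates 1, 2 and 3 they were 0.915 to 1.27, 1.05 to 1.42 and 1.26 to 1.49. These genes share reads of the same libraries and may include pieces of the same gene, so they are not 8 independent measurements.

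**Figure D3:**
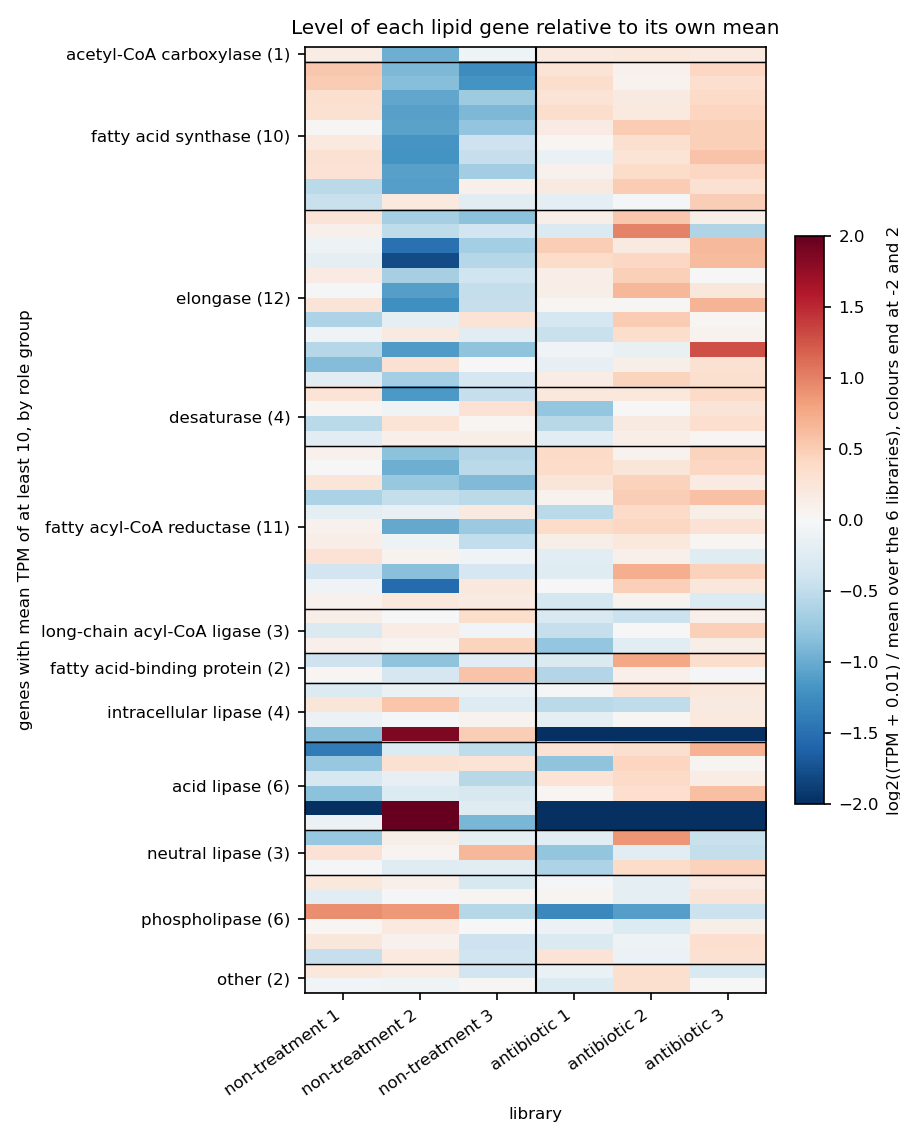
Level of the 64 genes with a mean of at least 10 TPM in each of the 6 libraries, as log2 of (TPM + 0.01) over the gene's mean, ordered by enzyme group; the colour scale ends at -2 and 2. The larger fatty acid synthases are low in non-treatment replicates 2 and 3, at 0.417 to 0.752 of their own mean, and above or near their mean in the other 4 libraries.

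Elongases, which add carbon pairs to fatty acids in the endoplasmic reticulum, were represented by 17 genes, and none was called. Their median log2 difference was 0.35, with 15 of 17 above 0. In 5 the groups did not overlap, all higher, where 10.5% of all genes tested were higher without overlap. Summed TPM was 961, 550 and 638 in the non-treatment group and 981, 1326 and 1062 in the antibiotic group, the lowest antibiotic sum being close to non-treatment replicate 1. The most abundant elongase (TRINITY_DN52965_c1_g2) was at 407, 215 and 193 TPM and at 369, 494 and 369 TPM (log2 difference 0.66, SE 0.320, adjusted p = 0.258), with overlapping groups. The next (TRINITY_DN57013_c2_g2) owed its higher antibiotic mean to 1 library: it was at 131, 86.4 and 94.5 TPM and at 99.8, 243 and 80.6 TPM, and its log2 difference of 0.29 (SE 0.412, adjusted p = 0.718) became -0.19 without antibiotic replicate 2. The elongases with the largest differences, chosen after their values were seen, were TRINITY_DN65103_c0_g1 and TRINITY_DN52965_c1_g1. The first was at 70.1, 23.4 and 54.3 TPM and at 104, 107 and 124 TPM, a log2 difference of 1.29 (SE 0.383, adjusted p = 0.0793). The second was at 84.3, 32.2 and 56.5 TPM and at 128, 103 and 142 TPM, a log2 difference of 1.18 (SE 0.347, adjusted p = 0.0774). In both, every antibiotic library was above every non-treatment library. With 1 library left out, they passed the threshold only without non-treatment replicate 1 (adjusted p = 0.0459 and 0.0330). On the counts of 5 libraries, edgeR without a count filter also called both (adjusted p = 0.000286 and 0.000323), while edgeR with the filter and DESeq2 did not.

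Of 7 desaturases, 1 fell and the others were not called (7.26% of all genes tested fell). The gene that fell (TRINITY_DN52401_c1_g4) has as its best match the Delta(11) desaturase of the moth Spodoptera littoralis, an enzyme used there to make sex pheromone. It was at 12.3, 22.5 and 8.06 TPM across the non-treatment group and at 0.157, 0.361 and 0.285 TPM across the antibiotic group, or 14.3 ± 7.40 TPM against 0.268 ± 0.103 TPM (SD, n = 3). The lowest non-treatment value was far above the highest antibiotic value. The gene had reached 1 TPM only in the non-treatment group, so a lower antibiotic level was built into its choice. The log2 difference was -3.48 (SE 0.355, adjusted p = 0.00145), the largest of the 11 called genes, and the call was also made under all 18 alternatives that tested it.

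The other desaturases did not share this pattern. The most abundant (TRINITY_DN53276_c3_g1), whose NR match is a Z9 desaturase of Tribolium castaneum, was at 120, 45.0 and 72.5 TPM across the non-treatment group and at 115, 115 and 129 TPM across the antibiotic group (log2 difference 0.70, SE 0.340, adjusted p = 0.262). Within the non-treatment group it was highest in replicate 1, as most synthases were. A gene matching DES1 (TRINITY_DN61648_c0_g3), which puts a double bond into sphingolipids, was at 42.5, 39.3 and 50.6 TPM and at 24.1, 41.5 and 49.6 TPM, with a log2 difference of -0.25 (SE 0.286, adjusted p = 0.646). A further Delta(11)-like gene (TRINITY_DN59629_c0_g2), chosen after its values were seen, was almost flat, at 17.2, 21.7 and 21.9 TPM and at 17.4, 22.0 and 20.8 TPM. So 4 of the 7 had a positive log2 difference, and the group's median was 0.06.

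Fatty acyl-CoA reductases, which reduce fatty acyl-CoA to alcohols for waxes and on the way to hydrocarbons, formed the largest synthesis group with 18 genes. In all, 1 rose and none fell, where 2.88% of all genes tested rose and 7.26% fell. The median log2 difference was 0.55, and 14 of 18 were above 0. The gene that rose (TRINITY_DN53487_c5_g1), a match to CG5065 of Drosophila melanogaster, was at 56.6, 63.3 and 60.7 TPM across the non-treatment group and at 92.4, 123 and 132 TPM across the antibiotic group. The means were 60.2 ± 3.38 TPM and 116 ± 20.7 TPM (SD, n = 3), and unlike the synthases this gene was even within the non-treatment group. The log2 difference was 0.92 (SE 0.204, adjusted p = 0.0301). It was no longer called when any library other than antibiotic replicate 1 was left out, with adjusted p between 0.0606 and 0.132 and log2 differences between 0.82 and 0.95.

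The most abundant reductases were, like most synthases, highest within the non-treatment group in replicate 1. TRINITY_DN63082_c3_g1 was at 626, 337 and 395 TPM across the non-treatment group and at 769, 620 and 810 TPM across the antibiotic group (log2 difference 0.74, SE 0.287, adjusted p = 0.167). TRINITY_DN58819_c1_g1 was at 279, 142 and 193 TPM and at 360, 330 and 371 TPM (log2 difference 0.84, SE 0.273, adjusted p = 0.105). Both were lowest in non-treatment replicate 2, the first overlapped between groups by 1 library and the second did not overlap. Both have the same Tribolium castaneum protein as their best match, as do TRINITY_DN57423_c5_g2 and TRINITY_DN51468_c8_g3. The last of these was called higher when TPM was rescaled (log2 difference 0.89, adjusted p = 0.0460). Summed over all 18 reductases, TPM was 1399, 837 and 966 in the non-treatment group and 1646, 1612 and 1771 in the antibiotic group, with every antibiotic library above every non-treatment library.

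The partners of these enzymes were described from a list of 9 tested genes for the last step of hydrocarbon synthesis and the other steps of elongation. Of these 9, 1 rose and none fell, where 2.88% of all genes tested rose and 7.26% fell. The gene that rose was a CYP4G15-like P450 (TRINITY_DN65027_c0_g2) at 313, 186 and 183 TPM across the non-treatment group and at 560, 594 and 470 TPM across the antibiotic group (log2 difference 1.29, SE 0.271, adjusted p = 0.0241). The CYP4G1-like gene (TRINITY_DN64442_c5_g2), the most abundant of the list, was at 5543, 2906 and 2972 TPM and at 5476, 7042 and 5937 TPM (log2 difference 0.75, SE 0.357, adjusted p = 0.249). Both were highest within the non-treatment group in replicate 1, the library in which the synthases were also highest. The 4 genes with CYP4G names served as the list for oenocytes. Whether each of them, including the CYP4G15-like gene that rose, is made in oenocytes of this beetle is not known here. Together they summed to 7812, 4225 and 4588 TPM across the non-treatment group and to 8156, 11588 and 8878 TPM across the antibiotic group. The part of oenocyte content in the levels of the synthases, elongases and reductases was not tested.

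Long-chain acyl-CoA ligases, which activate fatty acids with coenzyme A, gave no call among 5 genes, and their median log2 difference was 0.04. The bubblegum-like ligase (TRINITY_DN62326_c2_g1), named after a Drosophila mutant with raised very-long-chain fatty acids, was at 202, 187 and 238 TPM across the non-treatment group and at 150, 138 and 199 TPM across the antibiotic group (log2 difference -0.37, SE 0.221, adjusted p = 0.356). The match to ligase 4 (TRINITY_DN65864_c6_g1) was at 144, 194 and 170 TPM and at 127, 176 and 245 TPM (log2 difference 0.07, SE 0.277, adjusted p = 0.909). In both, the groups overlapped, and non-treatment replicate 1 was not set apart as it was for the synthases.

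Fatty acid-binding proteins carry fatty acids through the cytoplasm, and 2 were included. The muscle type (TRINITY_DN56148_c3_g3), matched to the flight muscle protein of the locust Schistocerca gregaria, was at 249, 191 and 286 TPM across the non-treatment group and at 273, 569 and 425 TPM across the antibiotic group. Antibiotic replicate 1 was inside the non-treatment range, and the gene was not called (log2 difference 0.76, SE 0.314, adjusted p = 0.190). On the estimated counts of the other 5 libraries it was called by edgeR (log2 difference 1.13, adjusted p = 0.0399) and by DESeq2 (log2 difference 1.16, adjusted p = 0.0148). Of the 34 muscle genes tested, 18 rose and 1 fell, where 2.88% of all genes tested rose and 7.26% fell. The part of muscle content in this protein's level was not tested. The second gene (TRINITY_DN61228_c2_g1) was at 47.4, 36.8 and 68.6 TPM and at 30.9, 49.5 and 45.1 TPM (log2 difference -0.26, SE 0.289, adjusted p = 0.634).

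Acid lipases, the family of lysosomal acid lipase and gastric lipase, from which insects also draw gut enzymes, comprised 22 genes. Of these, 2 fell and none rose, or 9.09% called lower against 7.26% of all genes tested. The median log2 difference was -0.03, since 10 genes were above 0 and 12 below. Some genes were low or absent in the antibiotic libraries, and others were of similar or higher level there. However, 7 of the 22 had reached 1 TPM only in the non-treatment group and 0 only in the antibiotic group. A lower antibiotic level was thus built into the choice of these 7, and nothing is read from the split. In 9 of the 22, the highest value of all 6 libraries was in non-treatment replicate 2, the library with the highest sum of digestive genes, against 20.0% of all genes tested. Genes that entered through their non-treatment level alone could do so through a peak in this library, so nothing is read from this count either.

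The 2 genes that fell are both named lipase 3. TRINITY_DN57400_c0_g2 was at 2.92, 21.6 and 9.53 TPM across the non-treatment group, was listed at 0 in antibiotic replicates 1 and 2, and was at 0.414 TPM in antibiotic replicate 3 (log2 difference -3.12, SE 0.584, adjusted p = 0.0153). TRINITY_DN52332_c1_g2 was at 12.6, 56.6 and 7.26 TPM and at 1.82, 1.97 and 2.27 TPM (log2 difference -2.63, SE 0.640, adjusted p = 0.0419). In both, the groups did not overlap and the non-treatment values spread over several-fold with the peak in replicate 2. The first gene had reached 1 TPM only in the non-treatment group, so a lower antibiotic level was built into its choice. The first call was lost without non-treatment replicate 3, antibiotic replicate 1 or antibiotic replicate 2 (adjusted p between 0.0542 and 0.0763), although the log2 difference stayed between -3.07 and -3.04. The second was lost without non-treatment replicate 1 or any antibiotic replicate (adjusted p between 0.0670 and 0.137), with log2 differences between -2.86 and -2.58. A further lipase 3 (TRINITY_DN51836_c1_g5), chosen after its values were seen, had the largest difference of all 132 genes and was not called. It was at 4.02, 76.2 and 13.5 TPM and at 0, 0.0333 and 2.22 TPM (log2 difference -3.57, SE 0.947, adjusted p = 0.0561). This gene, too, had reached 1 TPM only in the non-treatment group.

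The most abundant acid lipases did not fall. TRINITY_DN60486_c0_g1, matched to lysosomal acid lipase, was at 19.4, 42.5 and 36.0 TPM across the non-treatment group and at 62.7, 64.0 and 83.0 TPM across the antibiotic group. Every antibiotic value was above every non-treatment value, with a log2 difference of 1.13 (SE 0.307, adjusted p = 0.0597) as deposited and 1.24 (adjusted p = 0.0439) after rescaling. TRINITY_DN56558_c1_g3, a lipase 3, was at 24.6, 51.5 and 50.0 TPM and at 23.9, 56.1 and 43.3 TPM, with a log2 difference of -0.04 (SE 0.394, adjusted p = 0.964) that was 0.07 after rescaling. Thus its groups covered nearly the same range.

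**Figure D4:**
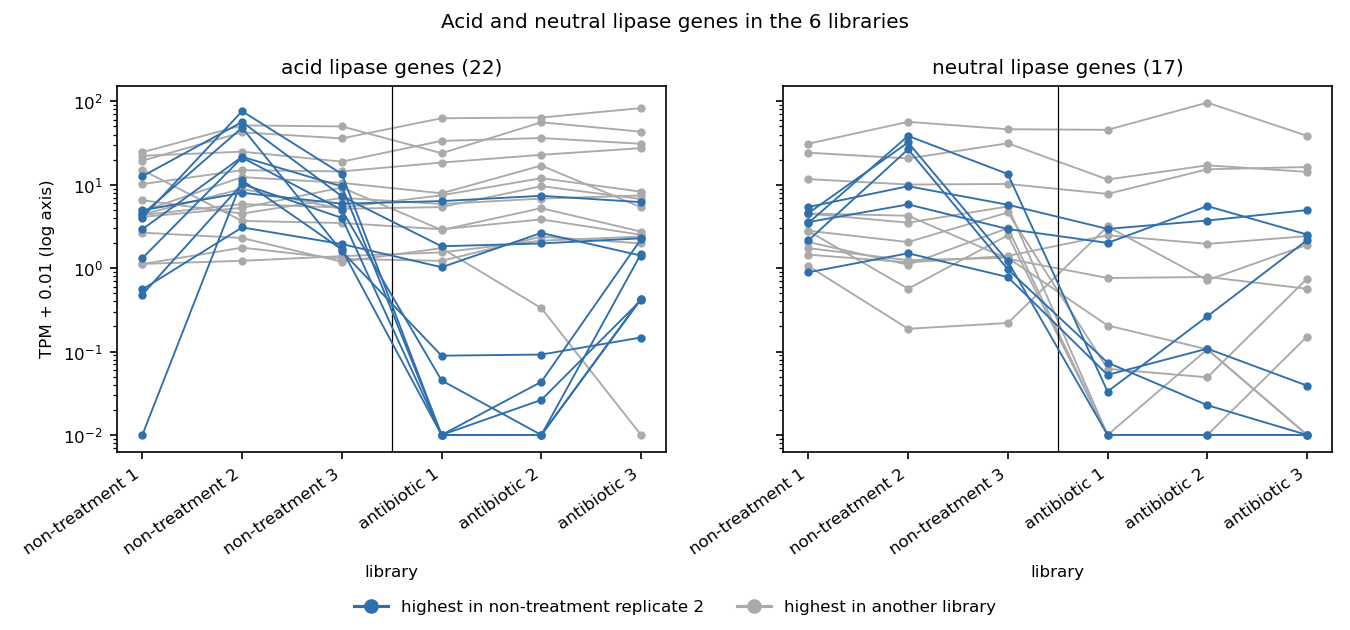
TPM + 0.01 (log axis) of the 22 acid and 17 neutral lipase genes in the 6 libraries; each line joins the values of 1 gene, and blue marks genes whose highest value was in non-treatment replicate 2. In 9 acid and 6 neutral lipases the highest value was in non-treatment replicate 2. By the way they were marked, these blue lines are lower in every antibiotic library, so nothing is read from their drop. A mean of 1 TPM was reached only in the non-treatment group by 7 acid and 10 neutral lipases, whose drop was thus built into their choice.

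Neutral lipases, relatives of pancreatic lipase that in insects include digestive and secreted enzymes, comprised 17 genes, of which 5 fell and none rose (7.26% of all genes tested fell). Their median log2 difference was -1.14, and 12 had every antibiotic value below every non-treatment value (19.8% of all genes tested). All 5 genes that fell, and 10 of these 12, had reached 1 TPM only in the non-treatment group, so a lower antibiotic level was built into their choice and nothing is read from these counts. The largest called difference was in TRINITY_DN61518_c1_g1, at 3.47, 38.5 and 13.4 TPM across the non-treatment group and at 0.0232, 0.254 and 2.16 TPM across the antibiotic group (log2 difference -3.10, SE 0.779, adjusted p = 0.0469). As in the acid lipases that fell, non-treatment replicate 2 was highest. Leaving out any library but non-treatment replicate 1 ended this call, with adjusted p between 0.0578 and 0.161 and log2 differences between -3.59 and -2.33.

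Another 3 of the 5, of which the third was named after its values were seen, were genes of 1 Trinity subcomponent (DN57700_c0), so that they may come from 1 locus. TRINITY_DN57700_c0_g3 was at 4.50, 3.50 and 5.48 TPM across the non-treatment group and at 0, 0.0963 and 0 TPM across the antibiotic group (log2 difference -2.40, SE 0.248, adjusted p = 0.00154). TRINITY_DN57700_c0_g2 was at 2.80, 2.04 and 4.65 TPM and at 0.0521, 0.0391 and 0.738 TPM (log2 difference -1.70, SE 0.342, adjusted p = 0.0204). These genes were highest in non-treatment replicate 3 and lowest of that group in replicate 2, unlike TRINITY_DN61518_c1_g1. TRINITY_DN57700_c0_g1 was at 2.05, 1.09 and 3.01 TPM and was listed at 0 in all antibiotic libraries (log2 difference -1.56, SE 0.307, adjusted p = 0.0189). The counts behind it were small, at 9, 5 and 15 estimated reads in the non-treatment libraries, and its fitted difference depends on the 1 TPM added and is no bound. The call of TRINITY_DN57700_c0_g3 was made under all 17 alternatives that tested it, and those of the other two under 12 and 11 of 17. Leaving out antibiotic replicate 1 or 2 ended the call of TRINITY_DN57700_c0_g2 (log2 difference -1.58 and -1.57, adjusted p = 0.0825 and 0.0771). Leaving out any antibiotic replicate ended that of TRINITY_DN57700_c0_g1 (adjusted p between 0.0663 and 0.0702), with the log2 difference still at -1.56.

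The fifth gene, TRINITY_DN47638_c0_g1, also named after its values were seen, was at 1.73, 1.24 and 1.32 TPM and at 0.195, 0.0963 and 0 TPM (log2 difference -1.14, SE 0.252, adjusted p = 0.0289), again from few reads (15, 12 and 14 in the non-treatment libraries). It was called without non-treatment replicate 3 but not without any other library (log2 difference between -1.21 and -1.06, adjusted p between 0.0631 and 0.107). The most abundant neutral lipases were not called. TRINITY_DN51836_c2_g2 was at 31.0, 56.8 and 46.3 TPM and at 45.5, 96.6 and 38.6 TPM (log2 difference 0.35, SE 0.381, adjusted p = 0.628), with overlapping groups. TRINITY_DN53496_c7_g1 was at 24.2, 20.6 and 31.4 TPM and at 11.6, 17.1 and 14.3 TPM, without overlap (log2 difference -0.79, SE 0.236, adjusted p = 0.0834).

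Many markers of the gut fell, and their sum was highest in non-treatment replicate 2. Of the lipases that fell, TRINITY_DN57400_c0_g2, TRINITY_DN52332_c1_g2, TRINITY_DN61518_c1_g1 and TRINITY_DN56326_c4_g1 were also highest there. The genes of DN57700_c0 and TRINITY_DN47638_c0_g1 were instead lowest of the non-treatment group in that library, and TRINITY_DN55260_c3_g5 was highest in replicate 3. Of 101 digestive genes tested, 42 fell and 2 rose, where 7.26% of all genes tested fell and 2.88% rose. The highest value was in non-treatment replicate 2 for 53 of them, or 52.5%, against 20.0% of all genes tested. These genes, too, were tested at a mean of at least 1 TPM in a group. For those that reached it in the non-treatment group alone, a lower antibiotic level was built into the choice, and nothing is read from these counts. On the list of 165, 27 were at 0 in every non-treatment and 24 in every antibiotic library. A cathepsin L1-like protease (TRINITY_DN57306_c4_g1) was at 145, 5628 and 584 TPM across the non-treatment group and at 0, 0.137 and 45.9 TPM across the antibiotic group. This was the same order of libraries as in TRINITY_DN61518_c1_g1 and in TRINITY_DN51836_c1_g5, which was not called. The part of gut tissue in the lipase levels was not tested.

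Among 8 intracellular lipases, which act on stored fat and membrane lipids inside cells, 1 fell (7.26% of all genes tested fell) and the median log2 difference was -0.21. The gene that fell (TRINITY_DN56326_c4_g1), matched to the monoacylglycerol lipase ABHD12, was at 5.73, 37.8 and 14.6 TPM across the non-treatment group and at 0.511, 1.09 and 2.52 TPM across the antibiotic group (log2 difference -2.84, SE 0.620, adjusted p = 0.0282). It was highest in non-treatment replicate 2, as the sum of the digestive genes was, and its call was lost without non-treatment replicate 2 or 3 or antibiotic replicate 1 or 2 (log2 difference between -2.86 and -2.20, adjusted p between 0.0576 and 0.116). Another ABHD12 match (TRINITY_DN54877_c1_g2) was slightly higher in every antibiotic library but was not called, at 36.8, 40.1 and 40.4 TPM and at 43.3, 53.4 and 51.1 TPM (log2 difference 0.32, SE 0.180, adjusted p = 0.328). The gene matched to PNPLA2 (TRINITY_DN59413_c1_g1), whose Drosophila relative brummer breaks down fat body triglycerides, was at 42.7, 53.0 and 30.4 TPM and at 24.8, 25.4 and 41.2 TPM (log2 difference -0.45, SE 0.288, adjusted p = 0.388). Hormone-sensitive lipase (TRINITY_DN59874_c3_g1), chosen after its values were seen, was at 5.53, 5.54 and 2.85 TPM and at 0.863, 1.72 and 1.97 TPM, without overlap and without a call (log2 difference -1.15, SE 0.312, adjusted p = 0.0606).

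Phospholipases, which cut membrane lipids, comprised 17 genes with a median log2 difference of -0.03, and 1 fell (5.88%, against 7.26% of all genes tested). The gene that fell (TRINITY_DN55260_c3_g5) resembles the secreted phospholipase A2 of lizard venom and was at 2.16, 2.98 and 3.31 TPM across the non-treatment group and at 0.832, 0.524 and 0.610 TPM across the antibiotic group (log2 difference -1.20, SE 0.245, adjusted p = 0.0218). Its groups were each narrow and did not overlap, but the call was lost without non-treatment replicate 2 or any antibiotic replicate (log2 difference between -1.27 and -1.14, adjusted p between 0.0538 and 0.0795). The gene had reached 1 TPM only in the non-treatment group, so a lower antibiotic level was built into its choice. The most abundant phospholipases were level: a calcium-independent phospholipase (TRINITY_DN63269_c0_g2) was at 49.9, 46.0 and 34.5 TPM and at 41.8, 37.3 and 48.0 TPM (log2 difference -0.03, SE 0.214, adjusted p = 0.955; 0.08 after rescaling). A group XV phospholipase A2 (TRINITY_DN56327_c2_g1), a lysosomal enzyme, was at 35.1, 39.4 and 41.9 TPM and at 42.0, 35.6 and 48.4 TPM (log2 difference 0.10, SE 0.196, adjusted p = 0.788). The remaining 4 genes gave no call, the most abundant being lipase maturation factor 2 (TRINITY_DN55658_c2_g1; log2 difference -0.03, SE 0.250, adjusted p = 0.963; 0.08 after rescaling), a folding factor for secreted lipases, and phospholipase A-2-activating protein (TRINITY_DN62428_c4_g1; log2 difference 0.05, SE 0.206, adjusted p = 0.909), which is not itself a lipase.

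**Figure D5:**
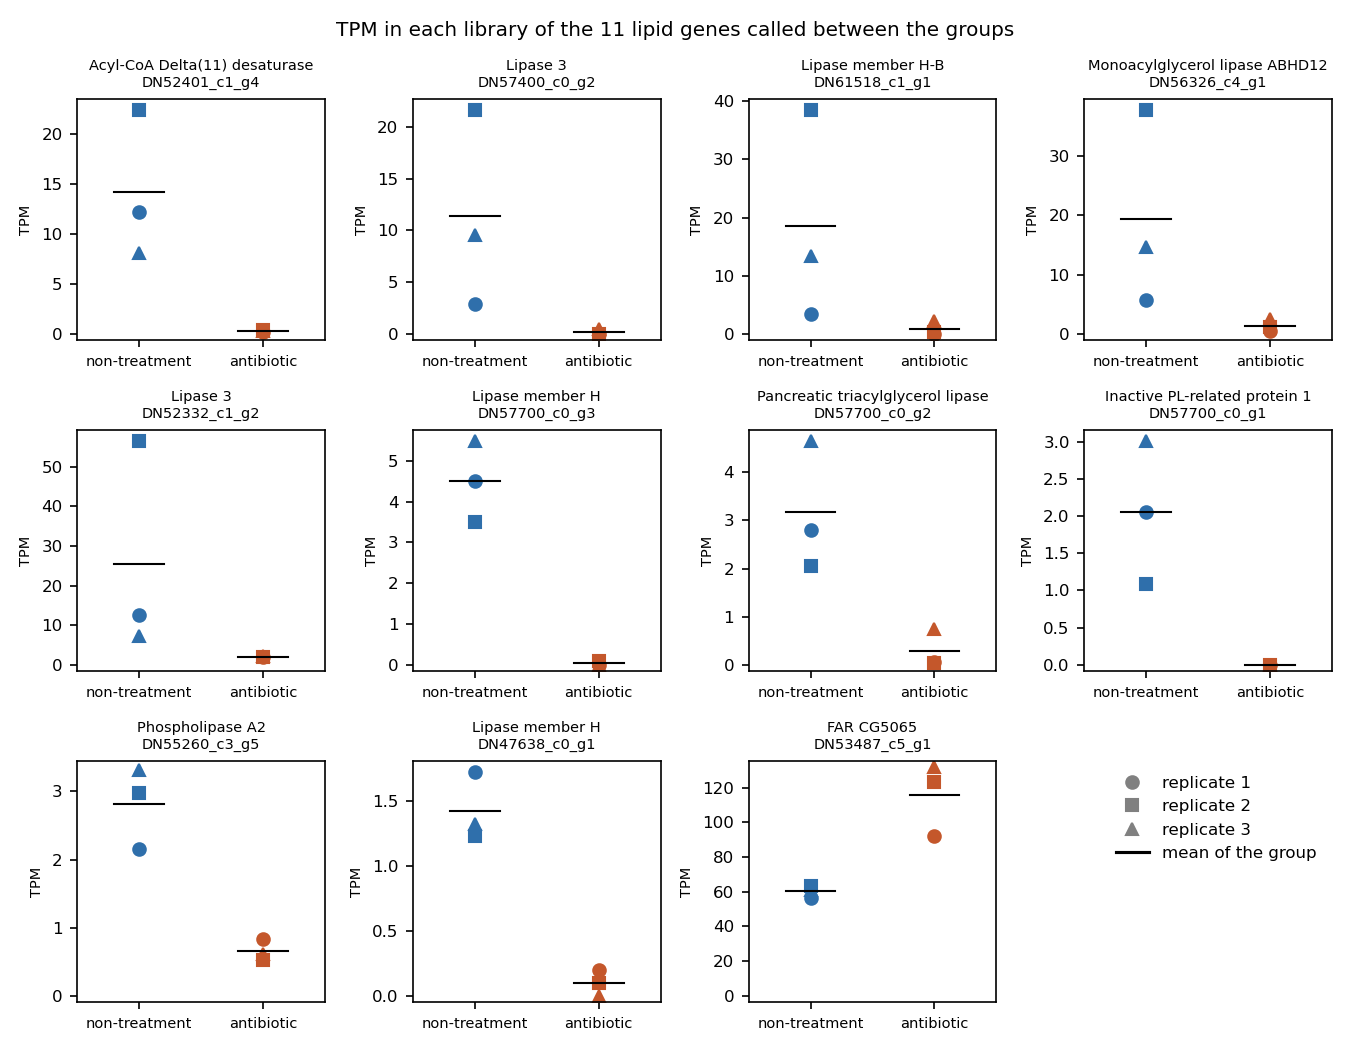
TPM in each library of the 11 called genes, with a linear axis of its own for each gene; marks are libraries (blue non-treatment, orange antibiotic) and bars are group means. The reductase TRINITY_DN53487_c5_g1 is higher in every antibiotic library (92.4 to 132 TPM against 56.6 to 63.3 TPM), and the other 10 genes are lower in every antibiotic library, the desaturase at 0.157 to 0.361 TPM. Of the other 10, 8 had reached 1 TPM only in the non-treatment group.

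Genes that feed or use the pathway were counted from lists of names. Of 12 genes that supply acetyl-CoA and NADPH, 1 rose and 2 fell, where 2.88% of all genes tested rose and 7.26% fell. ATP-citrate synthase (TRINITY_DN63617_c1_g1), which makes cytosolic acetyl-CoA, fell from 224, 228 and 219.5 TPM across the non-treatment group to 81.6, 97.1 and 102 TPM across the antibiotic group (log2 difference -1.25, SE 0.185, adjusted p = 0.00579). Its non-treatment values were nearly equal, so it did not share the low levels of non-treatment replicates 2 and 3 seen in the synthases. An NADP-dependent malic enzyme (TRINITY_DN63644_c6_g1), a source of NADPH, rose from 22.8, 20.3 and 35.6 TPM to 52.3, 56.1 and 106 TPM (log2 difference 1.38, SE 0.334, adjusted p = 0.0415), while the more abundant malic enzyme gene (TRINITY_DN59953_c2_g1) was at 241, 129.5 and 188 TPM and at 197, 223 and 175 TPM (log2 difference 0.13, SE 0.267, adjusted p = 0.814).

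None of 8 triglyceride synthesis genes, 36 beta-oxidation genes and 7 regulators was called, with median log2 differences of -0.10, -0.05 and -0.02. SREBP1 (TRINITY_DN64298_c4_g1), the transcription factor that activates synthase genes in mammals, was at 29.5, 23.2 and 35.3 TPM and at 33.1, 42.4 and 33.0 TPM (log2 difference 0.30, SE 0.223, adjusted p = 0.459), and was named after its values were seen. In lipid transport and storage, 2 of 13 genes rose and none fell (2.88% and 7.26% of all genes tested), the larger change being in a scavenger receptor class B member 1 (TRINITY_DN60382_c2_g2), a lipoprotein receptor in vertebrates. It was at 32.2, 28.0 and 33.0 TPM across the non-treatment group and at 54.9, 88.8 and 88.4 TPM across the antibiotic group (log2 difference 1.26, SE 0.239, adjusted p = 0.0162). Apolipophorin (TRINITY_DN62804_c2_g1), the lipid carrier made by the fat body, was at 1339, 902 and 1446 TPM and at 1160, 1481 and 1194 TPM (log2 difference 0.08, SE 0.276, adjusted p = 0.897), and none of 7 fat body and yolk genes was called.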

How the data were processed

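RNA from beetle heads (3 non-treatment, 3 antibiotic libraries) was extracted with the PureLink kit and sequenced on an Illumina HiSeq. The authors deposited, for each assembled Trinity gene, TPM values and estimated counts with Swissprot and NR matches. Their processing notes name FastQC, Salmon, DESeq2 and the mouse build mm10, whose role is not given in the sources used here, and the methods name featureCounts for TPM. The deposited estimated counts were usable for 5 libraries: the count column of antibiotic replicate 1 was not used because its file holds a copy of the counts of antibiotic replicate 2. TPM therefore served for the main comparison, in place of DESeq2 on counts, and depth for that library is unknown.

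log2(TPM + 1) of genes with a mean of at least 1 TPM in a group was compared with limma 3.58.1 (mean-variance trend, two-sided, Benjamini-Hochberg over 33919 genes, threshold 0.05) in R 4.3.3, with no replicate block. The limma, edgeR and DESeq2 fits were tested on simulated data first. Alternatives were other scalings, filters and pseudocounts, limma without trend, a replicate block, edgeR 4.0.16 and DESeq2 1.42.0 on rounded counts, stricter annotation, genes summed by NR protein, the study's own thresholds and leaving out each library. Named in each enzyme group were the 2 genes with the highest mean and up to 3 called genes per direction with the largest difference, and in other lists the leading called gene per direction or the most abundant gene. Exceptions are marked as chosen after their values were seen. The genes and lists were chosen with earlier results of these data known. Groups of 3 limit every p-value, and no sequences are shown.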

Additional observations from a re-analysis of the deposited data

How the results depend on the processing

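The counts of called genes (1 higher, 10 lower) depended on the settings. They were 6 and 8 after rescaling by median-of-ratios factors, 0 and 5 without a filter, 2 and 6 with at least 5 TPM in a group, 1 and 16 when 0.1 was added to TPM, 1 and 6 when 5 was added, and 7 and 24 with the thresholds of the study's methods (unadjusted p and a log2 ratio of mean TPM above 1). On the counts of 5 libraries they were 4 and 5 with edgeR, 4 and 6 when edgeR used the size factors of DESeq2, 5 and 16 with DESeq2, and 20 and 28 with edgeR without a count filter. Leaving out 1 library gave 0 to 11 higher and 2 to 14 lower genes. The cause of these shifts was not tested. Replicate numbers did not pair the libraries, since same-numbered libraries correlated at 0.13, -0.0921 and 0.0985 in their deviations from the group means, and with a replicate block 1 gene was higher and 7 were lower. Of the 11 calls, 5 were kept by edgeR and 8 by DESeq2. Of 32 named lipid genes, 9 changed sign under an alternative, none of them called. TRINITY_DN56558_c1_g3 became 0.07 after rescaling, 0.26 with edgeR (also without the count filter), 0.25 when edgeR used the other size factors and 0.28 with DESeq2. TRINITY_DN61648_c0_g3 became 0.06 with both edgeR scalings, 0.08 without the count filter and 0.09 with DESeq2. TRINITY_DN55658_c2_g1 became 0.08 after rescaling, 0.29 and 0.28 with the edgeR scalings, 0.31 with DESeq2 and 0.30 without the count filter, and TRINITY_DN63269_c0_g2 became 0.08 after rescaling. With 1 library left out, the log2 difference ranged from -0.38 to 0.30 for TRINITY_DN56558_c1_g3, from -0.46 to 0.05 for TRINITY_DN61648_c0_g3, from -0.21 to 0.10 for TRINITY_DN55658_c2_g1, from -0.18 to 0.08 for TRINITY_DN63269_c0_g2, from -0.19 to 0.60 for TRINITY_DN57013_c2_g2, from -0.16 to 0.30 for TRINITY_DN65864_c6_g1, from -0.05 to 0.60 for TRINITY_DN51836_c2_g2, from -0.09 to 0.19 for TRINITY_DN62428_c4_g1 and from 0.00 to 0.22 for TRINITY_DN56327_c2_g1. Few reads stood behind the lipase genes TRINITY_DN57700_c0_g1 and TRINITY_DN47638_c0_g1, with 5 to 15 estimated reads in each non-treatment library.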
